A study of Mus musculus with 8 samples.

Results

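Collagens are the proteins that form the fibers and sheets of the extracellular matrix, and their genes were followed here in tumors of the mouse cecum. A gene belonged to the set when its symbol was made of Col, a type number, the letter a and a chain number, when it was not Col17a1, and when its mean over all 8 libraries was at least 0.5 FPKM. FPKM is the number of fragments mapped to a gene, scaled by transcript length and library size, so levels of different genes are compared per length. The rule did not use the comparison between groups. It kept 35 of the 42 collagen symbols in a table of 34586 gene symbols.

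The tumors resemble the gastrointestinal stromal tumor (GIST), a sarcoma of the gut wall related to the pacemaker cells known as interstitial cells of Cajal. All 8 came from C57BL/6 mice of the genotype Kit V558Delta/+ (1 copy of an activating Kit mutation), Etv1 flox/flox (both Etv1 copies flanked by loxP sites) and Rosa26 CreERT2/CreERT2 (a Cre recombinase that tamoxifen switches on). The libraries were labelled vehicle (n = 4) or tamoxifen (n = 4), so the vehicle tumors carried the floxed alleles and the Cre as well, and the question is what differs in the tumors once Etv1, an ETS transcription factor, is ablated. The Rosa26 locus is active in most cell types and does not restrict the Cre to tumor cells, and where recombination took place was not measured here. An effect of tamoxifen itself and one of Etv1 loss cannot be told apart. The sources used here give neither the age of the mice nor the dose and duration of treatment. They also do not say whether all replicates are separate animals. Sex-linked genes placed both sexes in each group, so each group came from more than 1 animal, and the p-values below reflect how these samples varied.

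A collagen molecule is a helix of alpha chains wound around each other, from 1 gene or several, and the combination of chains defines the type. Fibrillar collagens assemble into the fibrils that give connective tissue its strength, FACIT collagens sit on the surface of those fibrils, and type IV collagen forms the sheet beneath epithelium, endothelium, muscle and nerve. In the gut wall fibroblasts, smooth muscle cells and pericytes are the usual sources of fibrillar and type VI collagen, while epithelial and endothelial cells also make basement membrane chains.

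Relative depth, judged from the FPKM that 1 read was worth in weakly expressed genes, spanned 1.42-fold over the libraries, and absolute depth is unknown. Etv1 measured 34.6, 51.1, 40.4 and 38.6 FPKM in vehicle and 34.9, 19.7, 31.4 and 17.4 FPKM after tamoxifen (log2 fold change -0.70, SE 0.24, adjusted p = 0.130), so the lowest vehicle library lay just below the highest tamoxifen library. Gene-level values also count reads outside the deleted stretch, a position the sources used here do not give. The 8 GIST and Cajal cell genes followed summed to 1496 to 2216 FPKM in vehicle and 1091 to 1549.8 FPKM in tamoxifen tumors, and 12 epithelial genes to 630.1 to 1015 and 1262 to 2940 FPKM, so every library held RNA of the tumor lineage and of epithelium. In bulk tumor RNA, fewer cells of a type and less RNA per cell cannot be told apart.

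The stretches of DNA in front of collagen genes ranged from 35.2% to 76.4% G and C, and 4 are printed to show this for the pair of fibrillar genes with the highest levels and the pair of genes that rose after tamoxifen. RefSeq start sites on GRCm38.p6 were found for 29 of the 35 genes, with 31 windows of the 250 bases upstream. The 6 genes without one were Col1a1, Col5a2, Col4a3, Col9a3, Col12a1 and Col14a1. This build differs from the mm9 build of the expression table. Windows run 5′ to 3′ on the strand of the gene. Capitals mark, in either orientation, the TATA box (TATAAA), the CCAAT box (CCAAT), the GC box (GGGCGG) and an ETS core site (CCGGAAG), and no 2 matches overlap in the 4 windows.
Col1a2 (chr6:4505368-4505617, plus strand): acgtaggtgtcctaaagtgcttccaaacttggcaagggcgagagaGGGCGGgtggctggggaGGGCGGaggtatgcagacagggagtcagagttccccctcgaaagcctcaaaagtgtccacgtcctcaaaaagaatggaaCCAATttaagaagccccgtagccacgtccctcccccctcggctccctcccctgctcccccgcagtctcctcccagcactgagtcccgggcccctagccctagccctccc
Col3a1 (chr1:45311288-45311537, plus strand): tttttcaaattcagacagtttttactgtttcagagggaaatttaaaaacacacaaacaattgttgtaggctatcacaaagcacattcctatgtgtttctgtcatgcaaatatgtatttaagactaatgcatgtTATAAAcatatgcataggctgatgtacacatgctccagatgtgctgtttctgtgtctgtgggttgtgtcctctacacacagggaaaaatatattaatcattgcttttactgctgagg
Col6a4 (chr9:106096692-106096941, minus strand): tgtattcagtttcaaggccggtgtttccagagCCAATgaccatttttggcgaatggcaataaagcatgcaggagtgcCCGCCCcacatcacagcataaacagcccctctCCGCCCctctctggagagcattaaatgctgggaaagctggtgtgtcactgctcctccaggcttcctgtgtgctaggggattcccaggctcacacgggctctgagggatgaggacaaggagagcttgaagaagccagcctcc
Col23a1 (chr11:51289670-51289919, plus strand): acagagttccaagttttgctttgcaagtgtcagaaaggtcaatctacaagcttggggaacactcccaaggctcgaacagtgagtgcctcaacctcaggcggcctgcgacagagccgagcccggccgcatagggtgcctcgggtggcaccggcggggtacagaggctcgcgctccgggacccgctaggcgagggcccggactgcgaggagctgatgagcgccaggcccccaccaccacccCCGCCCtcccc

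The Col3a1 window held 35.2% G and C with 1 TATAAA match. Those of Col1a2, Col6a4 and Col23a1 held 62.0%, 55.2% and 66.0%, against a median of 52.4% over all 32851 windows of the RefSeq set. GC boxes stood in front of 18 of the 29 collagen genes, CCAAT boxes in front of 10 and the letters TATAAA in front of 3 (Col3a1, Col11a2 and Col13a1). In all 3 these letters lay well away from the start, so they are not read as working TATA boxes. Over all windows the shares were 32.7% for the GC box, 33.8% for the CCAAT box and 12.4% for TATAAA. The ETS site CCGGAAG was in 0 of the 31 collagen windows and in 6.91% of all windows, which says only that these letters are not there. Shorter and other forms of ETS sites were not searched. Both genes that rose after tamoxifen had at least 1 GC box, and 1 of them, Col6a4, a CCAAT box too. Col5a2, which fell, had no window, so the genes that rose could not be set against it.

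Levels spanned from 0.590 FPKM for Col6a5 to 307 FPKM for Col1a2 as means of all 8 libraries. Means were 50 FPKM or more for 7 genes (Col1a2, Col3a1, Col4a1, Col5a2, Col6a3, Col4a2 and Col1a1) and from 1 to 10 FPKM for 16. Means of 4 genes, Col28a1, Col8a1, Col11a2 and Col6a5, were under 1 FPKM. The 0.5 FPKM limit fell in a gap, since the lowest genes inside it were Col6a5 and Col11a2 at 0.590 and 0.697 FPKM and the highest one outside it was Col22a1 at 0.266 FPKM. The other 6 genes below it were Col9a2, Col11a1, Col9a1, Col10a1, Col2a1 and Col6a6, among them Col2a1, the main chain of cartilage fibrils. All 35 genes had an estimate in every library, each from 1 row of the table.

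**Figure D1:**
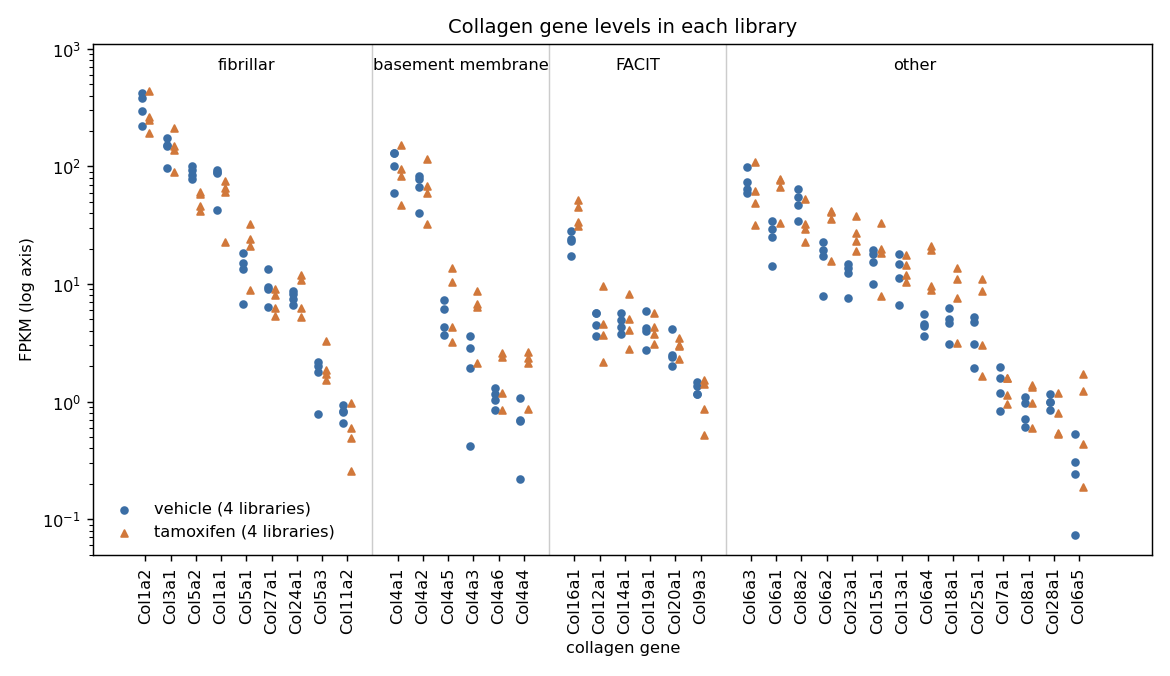
FPKM of the 35 collagen genes on a log axis, by collagen type, with 1 point for each of the 4 vehicle (circles) and 4 tamoxifen (triangles) libraries. Col1a2 and Col3a1 lead the fibrillar genes, Col4a1 and Col4a2 lie far above the other basement membrane genes, and most genes have overlapping groups.

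After tamoxifen 2 collagen genes rose, Col6a4 and Col23a1, and Col5a2 fell. Groups were compared with limma on log2(FPKM + 1), which understates the change of low genes, with Benjamini-Hochberg adjustment over the 15023 genes with a mean of at least 1 FPKM and a threshold of 0.05. The filter uses the mean over all libraries and passed 31 of the 35 collagen genes. The 3 that passed the threshold are 9.68% of the 31, beside 5.45% of all tested genes (2.38% higher and 3.07% lower), and 8 of the 31, or 25.8%, had an unadjusted p under 0.05, beside 22.4% of all tested genes. Groups did not overlap for 4 of the 31 (12.9%), beside 15.1% of all tested genes. The median log2 fold change was 0.087 over the collagen genes, 20 of them positive and 11 negative. Over all tested genes it was 0.0054, with 7600 positive and 7423 negative. For 11 of the 31 collagen genes the sign was not the same in every alternative fit. When genes down to a mean of 0.5 FPKM were tested, all 35 collagen genes entered, 3 passed and the share of all 16533 genes that passed was 5.09%. Without any 1 of the vehicle libraries limma called 0 of the 31, with 6 to 8 at an unadjusted p under 0.05, and 260 to 458 of all genes. Without any 1 of the tamoxifen libraries it called 2 or 3 of the 31 and 377 to 814 of all genes.

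**Figure D2:**
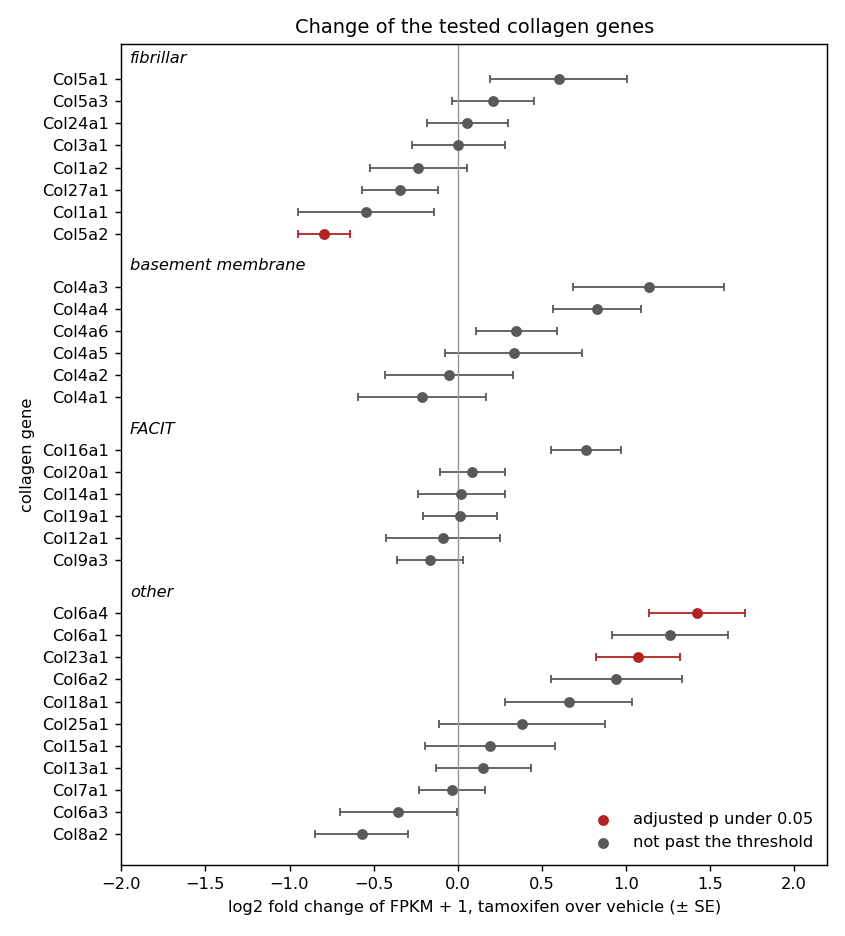
Log2 fold change of FPKM + 1, tamoxifen over vehicle, with its SE, for the 31 tested collagen genes by type. The 3 genes past the threshold are red: Col5a2 at -0.80, Col23a1 at 1.07 and Col6a4 at 1.42.

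Of the fibrillar collagens, 1 of 8 tested genes passed, Col5a2, which fell, and their log2 fold changes had a median of -0.12. For single genes the values of replicates 1 to 4 of each group are given in that order. Col5a2 (ENSMUSG00000026042; mm9 chromosome 1, 45431166 to 45560127) encodes a chain of type V collagen, which is built into type I fibrils and limits their width. It measured 85.0, 78.9, 101 and 93.9 FPKM in vehicle and 41.5, 60.2, 58.6 and 46.5 FPKM after tamoxifen, so every tamoxifen library lay below every vehicle library. The means were 89.8 ± 9.92 against 51.7 ± 9.14 FPKM (SD, n = 4 each), 1.74-fold higher in vehicle tumors (log2 fold change -0.80, SE 0.15, adjusted p = 0.0247). The log2 difference was -0.80 among libraries with identifiers under 1900 (3 vehicle, 2 tamoxifen) and -0.84 among those over 1900, where vehicle replicate 4 is the only vehicle library. These ranges of the sample identifiers are not a labelled batch. Its call was lost in the fit scaled to equal library totals (adjusted p = 0.302) and without any 1 vehicle library (0.0544 to 0.0798).

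Col5a1, the partner of Col5a2 in the main type V molecule, did not pass. Its values were 18.4, 6.75, 13.5 and 15.0 FPKM in vehicle and 8.92, 24.3, 32.7 and 20.9 FPKM after tamoxifen (log2 fold change 0.60, SE 0.41, adjusted p = 0.425), and 3 of the 4 tamoxifen libraries lay above all vehicle libraries while tamoxifen replicate 1 lay among them. Its locus overlaps that of Gm13372, so its values are uncertain. Col5a3, the third type V chain, was weaker, with 0.787 to 2.17 FPKM in vehicle and 1.53 to 3.28 FPKM after tamoxifen (log2 fold change 0.21, adjusted p = 0.651).

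The type I and type III genes, which encode the bulk of fibril protein, had overlapping groups. Col1a2 (mm9 chromosome 6, 4454814 to 4491543), the alpha 2 chain of type I collagen, had the highest level of the family at 381, 219, 420.2 and 298 FPKM in vehicle and 191, 263, 435 and 249.6 FPKM after tamoxifen (log2 fold change -0.23, SE 0.29, adjusted p = 0.672). Col1a1 (mm9 chromosome 11, 94797538 to 94814356), the alpha 1 chain, of which a type I molecule holds more copies than of alpha 2, measured 92.6, 42.5, 88.1 and 89.96 FPKM in vehicle and 22.6, 64.9, 75.0 and 60.4 FPKM after tamoxifen (log2 fold change -0.55, SE 0.40, adjusted p = 0.468). Its lowest values were those of tamoxifen replicate 1 and vehicle replicate 2, and its locus overlaps Gm17329, which makes the values uncertain. Col3a1 (mm9 chromosome 1, 45368383 to 45406551), whose homotrimer is abundant in the gut wall and vessels, measured 176, 97.8, 149 and 151 FPKM in vehicle and 89.6, 212, 149 and 138 FPKM after tamoxifen. Its group means were 144 ± 32.8 against 147 ± 50.2 FPKM (log2 fold change 0.0026, adjusted p = 0.997). The range of 2 SE on either side of the log2 fold change ran from -0.55 to 0.56. Differences of that size in either direction are compatible with these values, and the range is not a limit of detection. Col24a1, a fibrillar chain best known from bone, ranged over 6.66 to 8.73 FPKM in vehicle and 5.204 to 11.8 FPKM after tamoxifen (log2 fold change 0.058, adjusted p = 0.911). Col27a1, known from cartilage, ranged over 6.40 to 13.3 FPKM in vehicle and 5.37 to 9.10 FPKM after tamoxifen (log2 fold change -0.34, adjusted p = 0.410). Col11a2, a type XI chain also of cartilage, ranged over 0.658 to 0.941 FPKM in vehicle and 0.259 to 0.982 FPKM after tamoxifen and was not tested.

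For basement membrane collagen, the 6 chains of type IV, 0 genes passed with limma and 2 (Col4a3 and Col4a4) had an unadjusted p under 0.05, and the median of the 6 log2 fold changes was 0.34. The genes lie in head-to-head pairs on chromosomes 8 (Col4a1 and Col4a2), 1 (Col4a3 and Col4a4) and X (Col4a5 and Col4a6). Across the 8 libraries the ratio of a pair varied 1.24-fold, 2.18-fold and 1.72-fold, in that order. In RefSeq the starts of Col4a1 and Col4a2 are 21 bases apart and those of Col4a5 and Col4a6 are 1343 bases apart. The deposited table gives Col4a1 and Col4a2 the same mm9 locus (chromosome 8, 11187755 to 11449287), so how reads were divided between them is open to doubt and their values are uncertain.

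Col4a1 and Col4a2 form the type IV molecule present in nearly all basement membranes, and their levels lay above those of the other 4 chains in every library. Col4a1 measured 129, 59.5, 131 and 101 FPKM in vehicle and 46.6, 83.1, 153 and 94.4 FPKM after tamoxifen (log2 fold change -0.21, SE 0.38, adjusted p = 0.780). Col4a2 measured 78.2, 40.2, 83.0 and 66.8 FPKM in vehicle and 32.4, 59.1, 115 and 68.1 FPKM after tamoxifen (log2 fold change -0.051, SE 0.38, adjusted p = 0.952). Both were lowest in tamoxifen replicate 1 and vehicle replicate 2 and highest in tamoxifen replicate 3.

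Col4a3 and Col4a4 encode chains of a more restricted network, known from kidney glomerulus and some epithelia. Col4a3 measured 1.95, 2.88, 3.61 and 0.418 FPKM in vehicle and 8.76, 2.14, 6.75 and 6.36 FPKM after tamoxifen (log2 fold change 1.14, SE 0.45, adjusted p = 0.179), and 3 of the 4 tamoxifen libraries lay above every vehicle library. Its values spread 21.0-fold from vehicle replicate 4 to tamoxifen replicate 1, and its locus overlaps Mff, so they are uncertain. Col4a4 measured 0.680, 0.693, 1.07 and 0.219 FPKM in vehicle and 2.63, 0.862, 2.36 and 2.14 FPKM after tamoxifen (log2 fold change 0.83, SE 0.26, adjusted p = 0.104), with the same single tamoxifen library, replicate 2, inside the vehicle range. The adjusted p of Col4a4 passed in 1 of 8 omissions of a library, that of tamoxifen replicate 2 (0.0474), and reached 0.203 in the others. Col4a5 and Col4a6, which join other type IV networks including that of smooth muscle, ranged over 3.71 to 7.32 FPKM in vehicle and 3.18 to 13.6 FPKM after tamoxifen (log2 fold change 0.33, adjusted p = 0.667) and over 0.854 to 1.31 FPKM in vehicle and 0.854 to 2.59 FPKM after tamoxifen (log2 fold change 0.35, adjusted p = 0.431).

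Of the FACIT collagens, which have interrupted triple helices, 0 of 6 passed with limma and 1 (Col16a1) had an unadjusted p under 0.05, and the median of their log2 fold changes was 0.018. Col16a1 (mm9 chromosome 4, 129725084 to 129776527), a minor chain found near cells and basement membranes in several tissues, measured 28.4, 17.2, 23.4 and 24.0 FPKM in vehicle and 31.0, 45.5, 52.1 and 33.4 FPKM after tamoxifen. No tamoxifen library lay within the vehicle range, and the means were 23.3 ± 4.61 against 40.5 ± 10.02 FPKM, 1.74-fold higher in tamoxifen tumors. It missed the threshold (log2 fold change 0.76, SE 0.21, adjusted p = 0.0722) and passed it when libraries were weighted by quality (adjusted p = 0.0402).

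Col12a1 and Col14a1 encode the large FACIT chains of tissues under tension and had lower levels than Col16a1 in every library. Col12a1 measured 3.59, 4.48, 5.68 and 5.70 FPKM in vehicle and 4.59, 9.68, 2.17 and 3.69 FPKM after tamoxifen (log2 fold change -0.085, adjusted p = 0.908). Col14a1 measured 4.35, 3.74, 4.98 and 5.67 FPKM in vehicle and 4.03, 8.26, 2.81 and 5.06 FPKM after tamoxifen (log2 fold change 0.022, adjusted p = 0.970). Both were highest in tamoxifen replicate 2 and lowest in tamoxifen replicate 3, so the tamoxifen group spanned the whole vehicle range. The groups of the remaining FACIT genes overlapped too. Col19a1 ranged over 2.74 to 5.91 FPKM in vehicle and 3.07 to 5.72 FPKM after tamoxifen (log2 fold change 0.013, adjusted p = 0.978) and Col20a1 over 2.00 to 4.14 FPKM in vehicle and 2.29 to 3.48 FPKM after tamoxifen (log2 fold change 0.087, adjusted p = 0.825). Col9a3, a chain of cartilage type IX collagen, ranged over 1.15 to 1.48 FPKM in vehicle and 0.520 to 1.52 FPKM after tamoxifen (log2 fold change -0.16, adjusted p = 0.664).

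Among the other types, 2 of 11 tested genes rose, the type VI gene Col6a4 and the membrane-spanning Col23a1, and the median log2 fold change was 0.38. Type VI collagen forms beaded filaments around cells, classically from the Col6a1, Col6a2 and Col6a3 chains, and Col6a4 and Col6a5 encode chains that can take the place of Col6a3. The 4 tested type VI genes had a median of 1.10. Col6a4 (ENSMUSG00000032572; mm9 chromosome 9, 105891785 to 105999114) measured 4.56, 5.58, 4.44 and 3.62 FPKM in vehicle and 8.81, 21.1, 9.69 and 19.4 FPKM after tamoxifen, all tamoxifen libraries above all vehicle libraries. The means were 4.55 ± 0.801 against 14.8 ± 6.41 FPKM (SD, n = 4 each), 3.24-fold higher after tamoxifen (log2 fold change 1.42, SE 0.29, adjusted p = 0.0295). The log2 difference was 1.34 among libraries with identifiers under 1900 (3 vehicle, 2 tamoxifen) and 1.68 among those over 1900, where vehicle replicate 4 is the only vehicle library. The call was lost without any 1 vehicle library (adjusted p 0.0658 to 0.0941), without tamoxifen replicate 2 (0.0666) or 4 (0.0559) and with no filter on level (0.0554).

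Col6a1 and Col6a2, neighbours on chromosome 10, did not pass, and their ratio varied 1.44-fold over the libraries. Col6a1 (mm9 chromosome 10, 76171537 to 76188913) measured 34.6, 14.1, 29.5 and 25.3 FPKM in vehicle and 32.9, 78.9, 77.1 and 66.8 FPKM after tamoxifen (log2 fold change 1.26, SE 0.34, adjusted p = 0.0726), with 2.47-fold higher means in tamoxifen tumors. Of its tamoxifen libraries only replicate 1 lay within the vehicle range. The adjusted p passed the threshold in 1 of 8 omissions of a library, that of tamoxifen replicate 1 (0.0373), and reached 0.163 in the others. Col6a2 measured 22.8, 7.95, 19.6 and 17.4 FPKM in vehicle and 15.7, 41.9, 40.9 and 36.0 FPKM after tamoxifen (log2 fold change 0.94, SE 0.39, adjusted p = 0.198), again with tamoxifen replicate 1 alone inside the vehicle range. Col6a3 (mm9 chromosome 1, 92663435 to 92740529), the largest classical chain, measured 74.1, 64.5, 99.3 and 59.2 FPKM in vehicle and 31.7, 48.6, 109 and 61.9 FPKM after tamoxifen (log2 fold change -0.35, SE 0.35, adjusted p = 0.587), and its groups overlapped over most of their range. Col6a5, next to Col6a4 on chromosome 9, was below the level tested, at 0.306, 0.241, 0.0727 and 0.533 FPKM in vehicle and 1.22, 1.72, 0.187 and 0.435 FPKM after tamoxifen.

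Transmembrane collagens stand in the cell membrane with the triple helix outside the cell, and 1 of 3 passed. Col23a1 (ENSMUSG00000063564; mm9 chromosome 11, 51103422 to 51397420) measured 13.7, 12.4, 14.9 and 7.57 FPKM in vehicle and 23.3, 37.6, 27.0 and 19.2 FPKM after tamoxifen. All 4 tamoxifen libraries lay above the highest vehicle library, and the means were 12.1 ± 3.21 against 26.8 ± 7.88 FPKM (SD, n = 4 each), 2.202-fold higher after tamoxifen (log2 fold change 1.07, SE 0.25, adjusted p = 0.0468). The log2 difference was 1.06 among libraries with identifiers under 1900 (3 vehicle, 2 tamoxifen) and 1.47 among those over 1900, where vehicle replicate 4 is the only vehicle library. Its adjusted p was the nearest to the threshold of the 3 called genes, and the call was lost without any 1 library except tamoxifen replicate 4 (0.0814 to 0.104), with no filter (0.0766), with sex as a covariate (0.0674) and under both other scalings (0.0553 and 0.105). Col13a1, known from neuromuscular junctions, ranged over 6.67 to 17.9 FPKM in vehicle and 10.5 to 17.8 FPKM after tamoxifen (log2 fold change 0.15, adjusted p = 0.789), and Col25a1, known from neurons, over 1.91 to 5.29 FPKM in vehicle and 1.66 to 11.04 FPKM after tamoxifen (log2 fold change 0.38, adjusted p = 0.684).

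**Figure D3:**
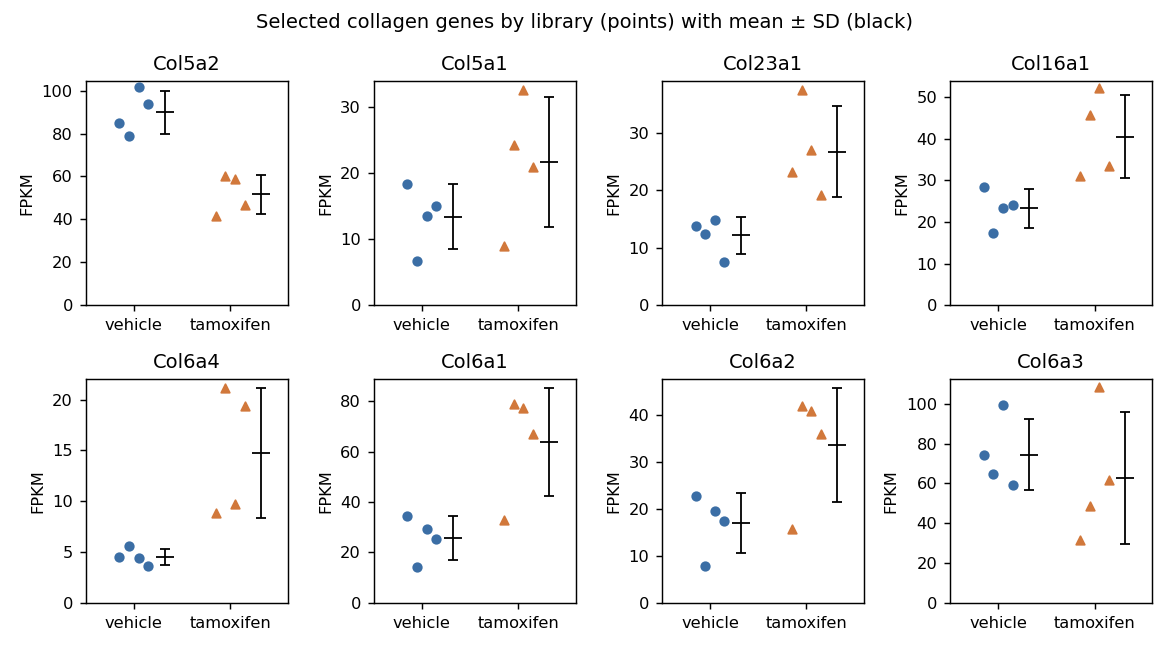
FPKM of 8 collagen genes in each library (points) with the mean and SD of each group (black), on linear axes from 0. Col5a2 is lower and Col23a1, Col16a1 and Col6a4 are higher in all 4 tamoxifen libraries than in any vehicle library, while Col5a1, Col6a1, Col6a2 and Col6a3 overlap.

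Multiplexins, which carry long sugar chains and link basement membranes to the fibrils beneath, are Col15a1 and Col18a1, and 0 of 2 passed with limma, with 0 at an unadjusted p under 0.05. Col15a1 measured 15.3, 10.1, 19.5 and 18.1 FPKM in vehicle and 7.85, 18.3, 19.999 and 32.8 FPKM after tamoxifen (log2 fold change 0.19, SE 0.39, adjusted p = 0.807). Col18a1, whose last fragment is known as endostatin, measured 5.04, 3.11, 4.62 and 6.28 FPKM in vehicle and 3.18, 13.6, 7.59 and 11.1 FPKM after tamoxifen (log2 fold change 0.66, SE 0.38, adjusted p = 0.339). Its locus overlaps Slc19a1, so the values are uncertain. Both were highest in a tamoxifen library and had tamoxifen replicate 1 near the low end.

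The network-forming Col8a2, a gene of the short-chain type VIII known from vessel walls and the cornea, was the third highest gene of the other types, at 55.5, 34.7, 64.2 and 46.6 FPKM in vehicle and 22.7, 32.4, 53.1 and 29.1 FPKM after tamoxifen (log2 fold change -0.57, SE 0.28, adjusted p = 0.270). Its partner chain Col8a1 ranged over 0.607 to 1.10 FPKM in vehicle and 0.6002 to 1.39 FPKM after tamoxifen and was not tested. Col7a1, the anchoring fibril chain beneath squamous epithelium, ranged over 0.832 to 1.99 FPKM in vehicle and 0.960 to 1.59 FPKM after tamoxifen (log2 fold change -0.035, adjusted p = 0.935). Col28a1, known from peripheral nerve, ranged over 0.849 to 1.17 FPKM in vehicle and 0.530 to 1.18 FPKM after tamoxifen and was not tested.

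Chains that share a molecule or a fibril can be set against each other within a library, where the scaling of the library cancels. Ratios of FPKM were compared on the log2 scale by exact 2-sided permutation of the library labels, where 70 assignments are possible and no p can be smaller than 0.0286. After adjustment over the 5 ratios 0 passed, and 2 had an unadjusted p under 0.05. Both of these stood at the smallest possible p. With only 2 ratios there the adjusted p cannot be below 0.0714, so they could not pass however far the groups lay apart. The ratio of Col6a3 to Col6a1 was 2.14, 4.56, 3.37 and 2.34 in vehicle and 0.966, 0.616, 1.41 and 0.927 after tamoxifen. Every vehicle library had more Col6a3 than Col6a1 and 3 of the 4 tamoxifen libraries had less (difference -1.66 on the log2 scale, exact permutation p = 0.0286, 0.0714 after adjustment over the 5 ratios). The ratio of Col5a1 to Col5a2 was 0.217, 0.0855, 0.133 and 0.160 in vehicle and 0.215, 0.403, 0.557 and 0.451 after tamoxifen, with the groups meeting at tamoxifen replicate 1 and vehicle replicate 1 (difference 1.45 on the log2 scale, exact permutation p = 0.0571, 0.0952 after adjustment over the 5 ratios). With 1 FPKM added to both chains, these ratios and that of Col4a1 to Col4a2 had an adjusted p of 0.0476.

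The ratio of Col4a1 to Col4a2 was 1.65, 1.48, 1.57 and 1.52 in vehicle and 1.44, 1.41, 1.33 and 1.39 after tamoxifen. It varied only 1.24-fold over the 8 libraries while each chain varied more than 3-fold, and its groups did not overlap (difference -0.16 on the log2 scale, exact permutation p = 0.0286, 0.0714 after adjustment over the 5 ratios). The 2 genes were given the same locus, so this ratio also depends on how reads were divided between them, which is not known. Type I chains were in a ratio of Col1a1 to Col1a2 of 0.243, 0.195, 0.210 and 0.302 in vehicle and 0.119, 0.247, 0.172 and 0.242 after tamoxifen (difference -0.32 on the log2 scale, exact permutation p = 0.371, 0.371 after adjustment over the 5 ratios). That is below 1 in every library although a type I molecule holds more alpha 1 than alpha 2. The loci of Col1a1 and Col5a1 overlap other genes, so the ratios with these chains are uncertain too. The ratio of Col3a1 to Col1a1 was 1.90, 2.2995, 1.70 and 1.68 in vehicle and 3.96, 3.26, 1.99 and 2.29 after tamoxifen (difference 0.56 on the log2 scale, exact permutation p = 0.0857, 0.107 after adjustment over the 5 ratios). Some further pairs are given without a test. Col4a3 to Col4a4 was 1.91 to 4.15, Col4a5 to Col4a6 was 3.66 to 6.29, and Col6a1 to Col6a2 was 1.52, 1.78, 1.503 and 1.45 in vehicle and 2.09, 1.88, 1.89 and 1.85 after tamoxifen. Col3a1 and Col5a2 are neighbours on chromosome 1, and their ratio was 2.07, 1.24, 1.47 and 1.61 in vehicle and 2.16, 3.52, 2.55 and 2.97 after tamoxifen.

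**Figure D4:**
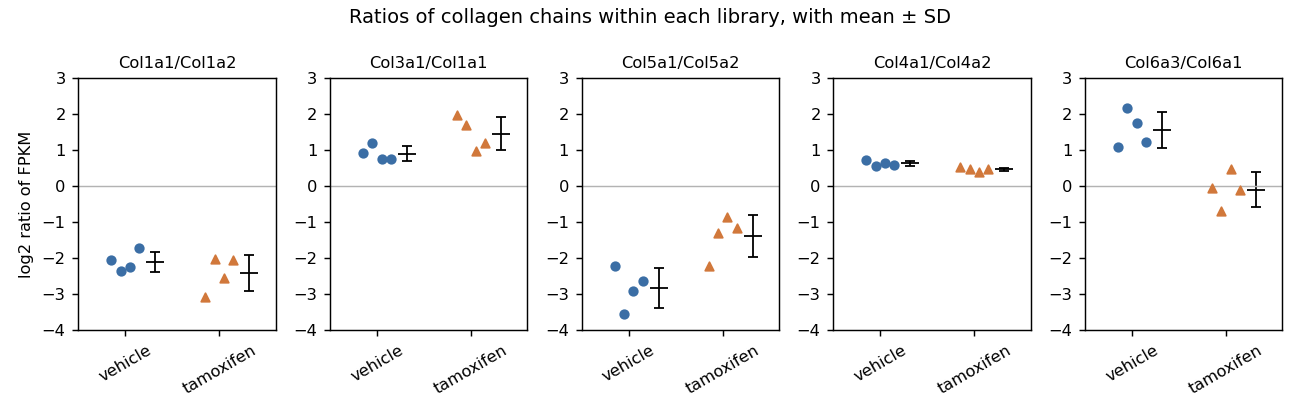
Log2 ratio of FPKM of 2 collagen chains in each library (points) with the mean and SD of each group (black), for 5 pairs of chains. The Col6a3 to Col6a1 and Col4a1 to Col4a2 ratios do not overlap between groups, and the latter has by far the narrowest spread. Col4a1 and Col4a2 were given the same locus, so how reads were divided between them is uncertain. The loci of Col1a1 and Col5a1 overlap other genes, so ratios with these chains are uncertain too.

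The summed level of the 35 genes was 1121 ± 255 FPKM in vehicle and 1107 ± 322 FPKM in tamoxifen tumors (SD, n = 4 each), with 777 to 1344 and 707 to 1481 FPKM in single libraries. Fibrillar and other types held different shares of that sum in the groups, while their summed levels overlapped. Fibrillar genes summed to 462 to 797 FPKM in vehicle and 374 to 766 FPKM in tamoxifen tumors. Other types summed to 168 to 279 and 177 to 367 FPKM. Shares are tied to each other, because a higher share of a type lowers the rest. Fibrillar genes held 59.3% to 61.3% of it in vehicle and 50.5% to 54.3% in tamoxifen tumors (60.1 ± 0.924% and 52.4 ± 1.64%), with no overlap. Other types held 18.6% to 21.7% and 24.8% to 28.0%, again with no overlap, and FACIT genes 3.77 ± 0.665% and 5.52 ± 1.21%. Basement membrane genes held 16.0 ± 1.14% and 16.0 ± 2.49%. These shares are sums over chosen genes and are given without a test. The 6 highest genes made up 72.3% to 73.8% of the sum in vehicle and 61.3% to 70.2% in tamoxifen tumors, and Col1a2 alone 27.5% to 31.3% and 21.98% to 29.4%.

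**Figure D5:**
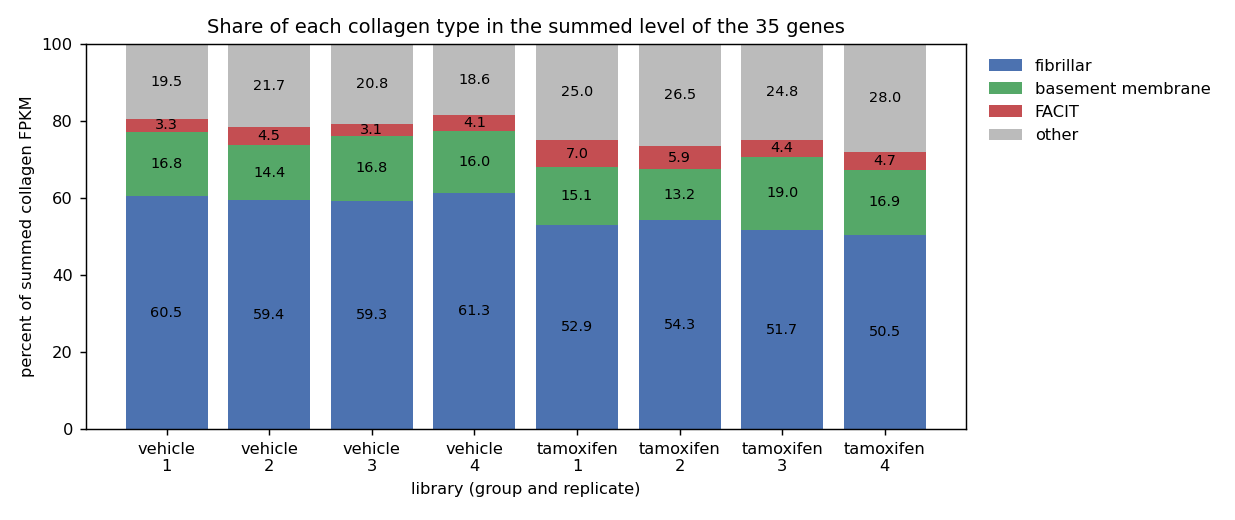
Percent of the summed FPKM of the 35 collagen genes held by each type in each library (stacked bars, 0 to 100). The fibrillar share is 59.3% to 61.3% in the 4 vehicle libraries and 50.5% to 54.3% in the 4 tamoxifen libraries.

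Levels also differed between single libraries. The highest over lowest value of a gene was taken across the 8 libraries, so it includes any difference between the groups. It had a median of 3.42-fold and ran from 2.08-fold to 23.7-fold (Col6a5), and it was over 3-fold for 21 of the 35. Tamoxifen replicate 2 held the highest value of 14 of the 35 genes, and the lowest values were held most often by tamoxifen replicate 1 (9 genes) and vehicle replicate 2 (7 genes). These last libraries also had the smallest sums, 707 and 777 FPKM.

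Collagen chains are modified, folded, secreted, trimmed and cross-linked by other proteins, and genes of these steps were counted from lists. Of the hydroxylation and folding genes 1 of 18 passed, P4ha1, a catalytic subunit of the prolyl 4-hydroxylase that stabilises the triple helix, which fell (53.5 ± 7.73 against 28.4 ± 4.44 FPKM, log2 fold change -0.89, adjusted p = 0.0199), and 13 of the 18 log2 fold changes were negative (median -0.26). Of 9 secretion genes 1 passed, Mia2, which serves the export of large cargo from the endoplasmic reticulum and rose (0.656 ± 0.120 against 3.01 ± 1.45 FPKM, log2 fold change 1.20, adjusted p = 0.0437). The P4ha1 call was lost without 1 library in 3 of 8 omissions and the Mia2 call in 7 of 8. With limma 0 of 5 genes of propeptide trimming passed and 3 had an unadjusted p under 0.05, led by Pcolce (462 ± 109 against 230.2 ± 66.8 FPKM, adjusted p = 0.0505), which enhances removal of the C-propeptide, and Mep1a (19.2 ± 5.10 against 7.96 ± 3.01 FPKM, adjusted p = 0.0596), a protease that can remove propeptides. Of 6 cross-linking genes 0 passed and 5 had an unadjusted p under 0.05. They included the lysyl oxidase Lox (5.13 ± 0.732 against 12.4 ± 5.62 FPKM, adjusted p = 0.0545) and the transglutaminase Tgm2 (304 ± 94.5 against 117 ± 57.4 FPKM, adjusted p = 0.0766), with opposite signs, and the Tgm2 locus overlaps other genes.

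Genes of the matrix around collagen gave 1 call in each of 2 lists. Of 14 basement membrane partners 1 rose, Lama5, a laminin chain of epithelial and vascular basement membranes (18.3 ± 2.34 against 32.3 ± 2.32 FPKM, log2 fold change 0.80, adjusted p = 0.0130). Of 12 genes of collagen transcription and TGF-beta signalling 1 rose, the ligand Tgfb2 (3.33 ± 0.655 against 9.12 ± 1.09 FPKM, log2 fold change 1.23, adjusted p = 0.00656), and both calls held without each library in turn. With limma 0 of 13 fibril-associated proteoglycans and partners passed (6 at an unadjusted p under 0.05, led by Tnxb at 0.862 ± 0.403 against 4.37 ± 2.64 FPKM and fibronectin, Fn1, at 339 ± 89.0 against 146 ± 83.1 FPKM). Of 8 collagen receptors 0 passed (3 unadjusted, led by the integrin chain Itga2 at 0.936 ± 0.431 against 2.42 ± 1.17 FPKM and Itga1 at 7.32 ± 0.719 against 5.48 ± 0.822 FPKM, whose locus overlaps Pelo). Of 9 collagenases, gelatinases and inhibitors 0 passed (4 unadjusted, led by the gelatinase Mmp2 at 25.6 ± 13.5 against 63.8 ± 17.9 FPKM and the collagenase Mmp13 at 9.06 ± 2.26 against 3.59 ± 2.25 FPKM).

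Markers of several cell types that make collagen moved with the groups, and their part in the collagen values was not tested. Of 7 pericyte genes 3 rose (Abcc9, Kcnj8 and Rgs5) led by Abcc9 at 3.02 ± 0.863 against 12.1 ± 1.39 FPKM, and the 7 summed to 65.9 to 75.6 FPKM in vehicle and 118 to 174 FPKM in tamoxifen tumors. Of 10 endothelial genes 4 rose (Ptprb, Emcn, Pecam1 and Tek), with sums of 82.4 to 103 and 122 to 171 FPKM. Fibroblast genes gave 1 rise (Scara5) and 1 fall (Thy1) among 14, with sums of 151 to 214 and 172 to 802 FPKM. Of their 14 log2 fold changes 11 were positive and 3 negative (median 0.64). At an unadjusted limma p under 0.05 there were 6 higher and 1 lower. Smooth muscle genes gave 1 rise among 9 (Synpo2) with sums of 220.5 to 411 and 366 to 471 FPKM, and epithelial genes 2 rises among 12 (Cldn4 and Krt18). Of 8 GIST and Cajal cell genes 1 fell, Edn3.

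Outside these, 8 of 10 T and NK cell genes fell, led by Cd3e, Nkg7, Prf1, Lck, Cd2 and Cd8a (sums of 203 to 293 and 109.6 to 129.9 FPKM) and 4 of 6 neutrophil genes rose, Ly6g, S100a8, S100a9 and Retnlg (7.50 to 27.5 and 180.3 to 472 FPKM). No gene passed with limma among 5 glial, 6 mesothelial, 4 adipocyte, 8 macrophage and 3 cartilage and bone genes, where 0, 1, 2, 1 and 2 had an unadjusted p under 0.05. The smallest p in these lists belonged to Cdh19 and Erbb3, Krt7 and Wt1, Fabp4 and Adipoq, Mrc1 and Cd14, and Acan and Sox9, in that order. No marker reported here was listed at 0 in all 8 libraries. Those at 0 in some were Lep of the adipocyte list and Matn1, Matn3, Ibsp and Sp7 of the cartilage and bone list. Of the 27 genes named from these lists that passed, 13 kept their call without each library in turn.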

How the data were processed

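RNA sequencing of 8 cecal tumors was used, with groups and replicate numbers from the sample titles. The authors deposited gene-level FPKM with a status flag per library, per the file headers. STAR 2.3, Cufflinks, Cuffdiff and the build mm9 are named in the submitters' processing notes, with the role of each, the annotation, the strand setting and the scaling between libraries not given in the sources used here. All sample columns were matched (0 unmapped).

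Rows were summed per symbol and the 178 failed estimates, all listed at 0, were treated as missing. None was among the 35 collagen genes described. Genes with a mean of at least 1 FPKM and 2 estimates per group were tested with limma 3.58.1 under R 4.3.3 (2-sided, eBayes with a trend in lmFit output) on log2(FPKM + 1), without further scaling. On simulated data for this comparison (14975 genes, 200 changed) log2 changes of 1 were called in 62% and of 2 in 90% of cases, and 10 of 162 calls were false. Changes were placed only in more strongly expressed genes, with noise drawn independently for each gene. These rates are therefore not known for weakly expressed genes or for noise that the genes of a library share. Chain ratios were compared by exact permutation.

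The collagen genes and the gene lists were chosen with earlier results of these data known. Values in every library are given for Col1a1, Col1a2, Col3a1, Col4a1, Col4a2, Col5a1, Col5a2, Col6a1, Col6a3, Col12a1, Col14a1, Col15a1 and Col18a1, for genes past the threshold or without overlap, and for the largest change of each type. Values of a few others were added after they were seen. From each other list the genes past the threshold (up to 6) or the pair with the smallest p are named. A listed gene is not reported here. Alternatives covered pseudocounts, filters, scaling, robust and weighted fits, sex (judged from Xist and Y-linked genes), identifier range, a replicate block, handling of rows and failed values, and omission of each library.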

Additional observations from a re-analysis of the deposited data

Results flagged for a closer look

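Col1a1 in vehicle replicate 2 measured 42.5 FPKM while the other 3 vehicle libraries lay between 88.1 and 92.6 FPKM. The gap was 0.909 of the range of the group, above the Dixon limit for 4 values. This was the only such value among 82 groups of 4 examined, and chance alone marks about 1 in 20 groups.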

How the results depend on the processing

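The number of collagen genes called was 3 as reported. It was 1 with no filter on level, 1 with libraries scaled to the same total, 5 with libraries weighted by quality (adding Col6a1 and Col16a1), 0 with a replicate block (8 at an unadjusted p under 0.05) and 0 to 3 when each library was left out in turn. Over all genes 819 were called, 534 with a mean of at least 5 FPKM, 228 with the same total (67.1% of them higher, against 43.7%, with the median of all genes at 0.0557), 252 with the replicate block and 260 to 814 with each library left out. The totals used for the same total scaling included Ighj1 and Ighj4, which held 5.42% to 54.6% of the summed FPKM of single libraries. With 1 FPKM added to both chains the ratio differences were 1.40 for Col5a1 to Col5a2, -0.16 for Col4a1 to Col4a2 and -1.61 for Col6a3 to Col6a1, with adjusted p past the threshold. With a library left out the smallest exact p is 0.0571, so those tests could not pass. The cause of these differences was not tested.

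The replicate numbers are not stated to pair the samples. Deviations of same-numbered libraries correlated between -0.156 and 0.145, and 3 of 8 libraries resembled their own number most. With so few libraries these values cannot decide whether the numbers mark pairs. The block gave adjusted p of 0.062 for Col5a2, 0.0592 for Col6a4 and 0.0518 for Col23a1.

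The sign changed at least once for 11 collagen genes, none called and none beyond 0.21 in size. Median ratio scaling gave -0.037 for Col3a1, -0.0094 for Col14a1 and -0.019 for Col19a1. The same total gave 0.0082 for Col4a2. The identifier range as a covariate gave -0.021 for Col3a1, 0.028 for Col12a1 and 0.029 for Col7a1. Library weights gave 0.14 for Col12a1, -0.079 for Col19a1 and -0.0080 for Col13a1. With each library left out the log2 fold change ran from -0.19 to 0.22 for Col3a1, -0.11 to 0.24 for Col24a1, -0.48 to 0.081 for Col4a1, -0.34 to 0.26 for Col4a2, -0.41 to 0.18 for Col12a1, -0.21 to 0.22 for Col14a1, -0.13 to 0.16 for Col19a1, -0.011 to 0.25 for Col20a1, -0.094 to 0.55 for Col15a1, -0.16 to 0.079 for Col7a1 and -0.10 to 0.33 for Col13a1.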

Other observations

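Among the 7 collagen genes below the 0.5 FPKM limit, 2 had groups that did not overlap, in opposite directions. The share was 15.1% over all tested genes, but those had means of at least 1 FPKM. The 7 genes had means of 0.0177 to 0.266 FPKM, near the floor, so the 2 shares are not matched in level. Col11a1, a chain of type XI collagen, measured 0.0315, 0.0504, 0.0510 and 0.0919 FPKM in vehicle and 0.456, 0.808, 0.160 and 0.162 FPKM after tamoxifen. Col9a1, a chain of type IX collagen, measured 0.457, 0.419, 0.190 and 0.297 FPKM in vehicle and 0.0833, 0.0271, 0.0775 and 0.0480 FPKM after tamoxifen. Both were singled out after their values were seen and were not tested. Of the cartilage genes, Acan, the core protein of aggrecan, measured 9.33, 0.574, 5.52 and 2.57 FPKM in vehicle and 0.0269, 0.0214, 0.290 and 0.102 FPKM after tamoxifen (limma, adjusted p = 0.0612).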
